A study of Mus musculus with 2 samples.

Results

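The 36 genes described here carry fatty acid oxidation and the activation of fatty acids that precedes it, and they were taken by symbol from a deposited table of 19595 genes. They comprise 5 genes of the carnitine shuttle, 12 enzymes of mitochondrial beta-oxidation, 3 genes of electron transfer, 6 of peroxisomal oxidation and import, 7 acyl-CoA synthetases, 2 fatty acid binding proteins and Pdk4. Neural stem cells had been prepared from embryonic brain (day 13, ICR mice), and their RNA gave 1 control library, named psicor with genotype WT, and 1 knockdown library, named sh1 with genotype KO. The title of the series names Ccdc25 as the gene under study, and the design text speaks of a knockdown made in triplicate. The table holds 1 column of counts per group, and whether a column stands for 1 culture or for several joined is not given in the sources used here. Differences between the libraries are therefore given without a test or a replicate check.

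Fatty acids enter oxidation only after an acyl-CoA synthetase has joined them to coenzyme A. Long-chain acyl-CoA crosses into mitochondria as a carnitine ester and is then shortened in repeated rounds of dehydrogenation, hydration, a further dehydrogenation and thiolysis, whose electrons reach the respiratory chain through the electron transfer flavoprotein. Peroxisomes shorten very long and branched chains with their own enzymes. In the brain this oxidation is known mainly from astrocytes and neural stem cells, and neurons are known to use it little.

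Among the members, oxidation genes were mostly higher in the knockdown library and most of the 7 acyl-CoA synthetases were lower. Past a minimum mean of 1 CPM (counts relative to library size, scaled between the libraries), all 19 measured genes of mitochondrial oxidation, that is of the shuttle, the beta-oxidation enzymes and electron transfer, lay above their control level, as did 5 of 6 peroxisomal genes and 2 of 7 synthetases. Among the 14158 genes of the table past the same minimum, 49.7% lay above and 50.3% below. The 19 genes of mitochondrial oxidation include Cpt1c, an isoform of the endoplasmic reticulum with little transferase activity. It also enters their median and sums below. The median log2 fold, knockdown over control, was 0.66 for mitochondrial oxidation, 0.50 for the peroxisomal genes and -0.49 for the synthetases, beside -0.0042 over all genes. Summed levels were 1188 CPM in control RNA and 1770 CPM after knockdown for mitochondrial oxidation, 265 and 372 CPM for the peroxisomal genes, and 482 and 413 CPM for the synthetases. The minimum left 35 members, of which 6 were at least 2-fold higher (background 7.64%), 1 was at least 2-fold lower (background 7.76%) and 28 lay within 2-fold. The members at least 2-fold higher were Pdk4, Acsf2, Decr1, Eci2, Acox3 and Hadha, and the member at least 2-fold lower was Acsl4. Scaling to total counts in place of edgeR's TMM factors left 3 members at least 2-fold higher, since Eci2, Acox3 and Hadha lay just past the threshold (log2 folds of 1.04, 1.03 and 1.01) and Cpt1a, at a log2 fold of 0.99, just short of it. Those 3 also share 3.41%, 6.08% and 0.859% of their exonic bases with genes on the opposite strand, and without members that share such bases 3 of the 6 are left.

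**Figure D1:**
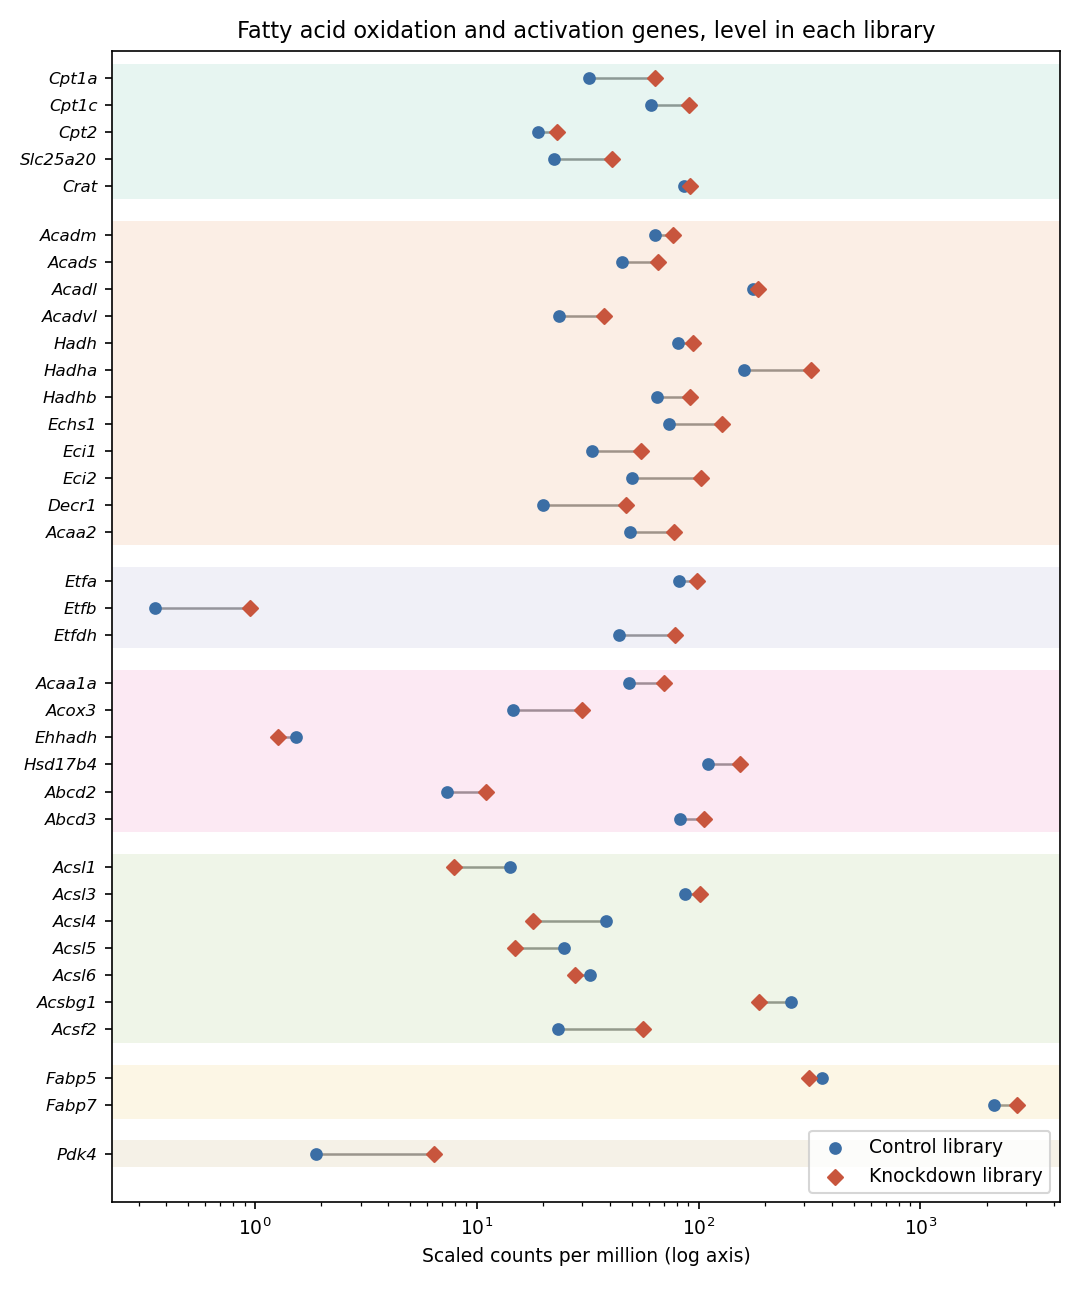
Level of each gene in the control (circles) and the knockdown library (diamonds), in CPM scaled between the libraries, on a log axis, with genes in rows by functional group. Every gene of the shuttle, of mitochondrial beta-oxidation and of electron transfer past the minimum of 1 CPM has its knockdown value to the right, whereas 5 of 7 acyl-CoA synthetases have it to the left.

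Bases just upstream of 5 start regions are shown. Pdk4, Acsf2 and Acsl4 are members at the ends of the range. Cpt1a, which lies inside the range, encodes the transferase at the entry of the carnitine shuttle. Hadha and Hadhb encode subunits of 1 enzyme and face away from a common gap. The sequences are RefSeq's on GRCm38.p6, 5′ to 3′ on the gene's strand (the plus strand for Hadha and Hadhb), and lie outside all exons of GENCODE M21. Capitals mark matches, on either strand, to any of the motifs spelled out below.
Hadha-Hadhb, chr5:30155163-30155247: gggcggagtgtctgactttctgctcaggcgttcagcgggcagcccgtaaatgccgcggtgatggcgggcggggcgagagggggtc
Cpt1a, chr19:3323185-3323284: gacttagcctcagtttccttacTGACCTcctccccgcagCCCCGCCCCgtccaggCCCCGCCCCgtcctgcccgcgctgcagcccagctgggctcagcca
Acsf2, chr11:94601872-94601971, minus strand: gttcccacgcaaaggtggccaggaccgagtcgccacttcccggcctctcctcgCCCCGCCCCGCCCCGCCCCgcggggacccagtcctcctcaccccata
Pdk4, chr6:5496310-5496409, minus strand: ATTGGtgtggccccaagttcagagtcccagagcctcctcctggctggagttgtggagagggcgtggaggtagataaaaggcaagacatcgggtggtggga
Acsl4, chrX:142390536-142390635, minus strand: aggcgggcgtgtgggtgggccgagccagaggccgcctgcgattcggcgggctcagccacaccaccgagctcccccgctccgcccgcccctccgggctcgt

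The whole promoter windows, 250 bases before to 50 after each RefSeq start, were searched on both strands for 8 short motifs. Windows were found for 30 of the 36 members, 34 windows in all, and were read beside the 32851 windows of the RefSeq table. The full element bound by peroxisome proliferator-activated receptors, AGGTCANAGGTCA, was in 0 member windows and in 0.0396% of all windows. Its half-site, AGGTCA, which the full element contains, was in 7 member windows (20.6%, beside 16.3% of all), those of Cpt1a, Cpt1c, Acadm, Acadvl, Echs1, Acsl6 and Fabp7. The GC box GGGGCGGGG was in 11 member windows (32.4%, beside 11.4%), and the CCAAT box CCAAT in 17 of the 34 (37.4% of all windows). The TATA box TATAAA was in 0 member windows (13.6% of all), as were the E-box CACGTG (7.15%) and the cyclic AMP response element TGACGTCA (1.79%). The sterol regulatory element TCACNCCAC was in 2 member windows, those of Acsl1 and Ehhadh (5.88%, beside 1.24%). Cpt1a and Acsf2 both carry GC boxes in the bases shown, 3 overlapping ones in Acsf2, and Pdk4 carries a CCAAT box. The gap between Hadha and Hadhb, with 69.4% G and C, and the bases upstream of Acsl4 hold none of the 8. A match is a description of letters only.

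Depth and the check of the labels came before the comparison of members. The genes of the table took 16549682 control counts and 16058407 knockdown counts, so a floor of 3 counts stands at 0.178 and 0.190 CPM. Ccdc25 had 32.8 CPM in control RNA and 26.1 CPM after knockdown, a ratio of 0.794 with a 95% interval of 0.697 to 0.904, and 26.5% of all genes had a lower fold. This interval, like all others given here, is an exact conditional binomial one and covers counting error only. Cell type markers differed widely between the libraries. All 12 astrocyte markers were higher in the knockdown library, 6 of them at least 2-fold (background 7.64%), with ratios from 1.42 to 156. Their sum was 1329 CPM in control RNA and 7173 CPM after knockdown, of which Apoe alone made up 151 and 3484 CPM. Of 11 oligodendrocyte markers 10 were higher, from a sum of 3013 to 5325 CPM. Of 10 radial glia and stem cell markers 9 were higher (sums of 4524 and 5892 CPM), and of 11 neuronal markers 10 were lower (2831 and 1201 CPM). Macrophage markers summed to 37.8 and 12 CPM, with 4 of 9 at 0 counts in the knockdown library, and mesenchymal markers to 332 and 40.9 CPM. Endothelial markers summed to 3.92 and 2.41 CPM. In such mixed RNA, fewer cells of a type and less RNA per cell cannot be told apart, and the part of these markers in the results for fatty acid genes was not tested.

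The carnitine shuttle was higher at its entry and at the membrane carrier, and nearly level at its acetyl branch. Cpt1a (ENSMUSG00000024900, chromosome 19, plus strand, 3323301 to 3385732, GRCm38 positions as all others here) encodes the outer-membrane transferase that commits long chains to oxidation. It stood at 32.2 CPM in control RNA and 63.9 CPM after knockdown (ratio 1.99, interval 1.79 to 2.21), and 7.74% of all genes had a higher fold. Slc25a20, the carrier that exchanges acylcarnitine for carnitine across the inner membrane, stood at 22.4 and 40.9 CPM (ratio 1.83, interval 1.61 to 2.08). Cpt1c, an isoform of neurons that resides in the endoplasmic reticulum and has little transferase activity, stood at 60.9 and 90.2 CPM (ratio 1.48, interval 1.37 to 1.61). Cpt2, which reforms acyl-CoA inside mitochondria, differed less, with 19.0 and 23.0 CPM and a ratio of 1.21 (1.04 to 1.41). Crat, which makes acetylcarnitine, had 85.7 and 91.1 CPM, and its interval of 0.987 to 1.14 held a ratio of 1. Per kilobase of exon, Cpt1c was 2.58 times as abundant as Cpt1a in the control and 1.92 times in the knockdown library. In all, 4 of the 5 shuttle genes had an interval above a ratio of 1 (33.2% of all genes did), and the group's median log2 fold was 0.57, or 0.87 without Cpt1c and Crat, which share exonic bases with other genes.

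All 12 enzymes of mitochondrial beta-oxidation were above their control level, 11 of them with an interval above a ratio of 1, and 7 by at least 1.5-fold (background 16.0%). The median log2 fold was 0.67, with a range from 0.064 to 1.23. The enzymes that prepare unsaturated chains were among the highest. Decr1 (ENSMUSG00000028223, chromosome 4, 15917240 to 15945507, minus strand), the dienoyl-CoA reductase, stood at 20.0 CPM in control RNA and 47.0 CPM after knockdown (ratio 2.35, interval 2.07 to 2.68). Eci2, an enoyl-CoA isomerase also found in peroxisomes, stood at 50.1 and 103 CPM (ratio 2.05, interval 1.89 to 2.24), and its relative Eci1 at 33.1 and 55.1 CPM (ratio 1.67, interval 1.5 to 1.86).

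The 4 acyl-CoA dehydrogenases, which open each round, were closer to their control levels. Acadvl, for very long chains, stood at 23.6 and 37.5 CPM (ratio 1.59, interval 1.40 to 1.81). Its exons share 1151 bases, 42.9% of their length, with Dvl2 on the opposite strand, which had 1661 and 1697 counts, and whether reads were counted by strand is not given in the sources used here. Acads, for short chains, had a ratio of 1.44 (1.31 to 1.58), with 45.4 and 65.4 CPM. Acadm, for medium chains, had 63.6 and 76.9 CPM (ratio 1.21, interval 1.11 to 1.31). Acadl, for long chains, had 177 and 185 CPM, and its interval of 0.993 to 1.10 held a ratio of 1. Acadl was also the most abundant of the 12 enzymes per kilobase, at 88.2 CPM per kb in the control and 92.2 CPM per kb in the knockdown library, 35.5% and 26.5% of the group's summed level.

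Later steps of the round ranged from Hadh to Hadha. Hadha and Hadhb encode the alpha and beta subunits of the mitochondrial trifunctional protein and start 85 bases apart on opposite strands of chromosome 5, around the gap printed above. Hadha (30118304 to 30155162) stood at 160 CPM in control RNA and 322 CPM after knockdown (ratio 2.02, interval 1.92 to 2.11). Hadhb (30155248 to 30184593) stood at 65.2 and 91.3 CPM (ratio 1.40, interval 1.29 to 1.52), so the counting intervals of the 2 subunits did not overlap. Per kilobase, Hadha was 1.85 times as abundant as Hadhb in the control and 2.67 times in the knockdown library. Echs1, the hydratase for short chains, stood at 73.9 and 128 CPM (ratio 1.73, interval 1.61 to 1.85). Acaa2, the thiolase that releases acetyl-CoA, had 49.0 and 77.5 CPM (ratio 1.58, interval 1.45 to 1.73). Hadh, the dehydrogenase of short hydroxyacyl chains, had 80.9 and 94.8 CPM (ratio 1.17, interval 1.09 to 1.26).

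**Figure D2:**
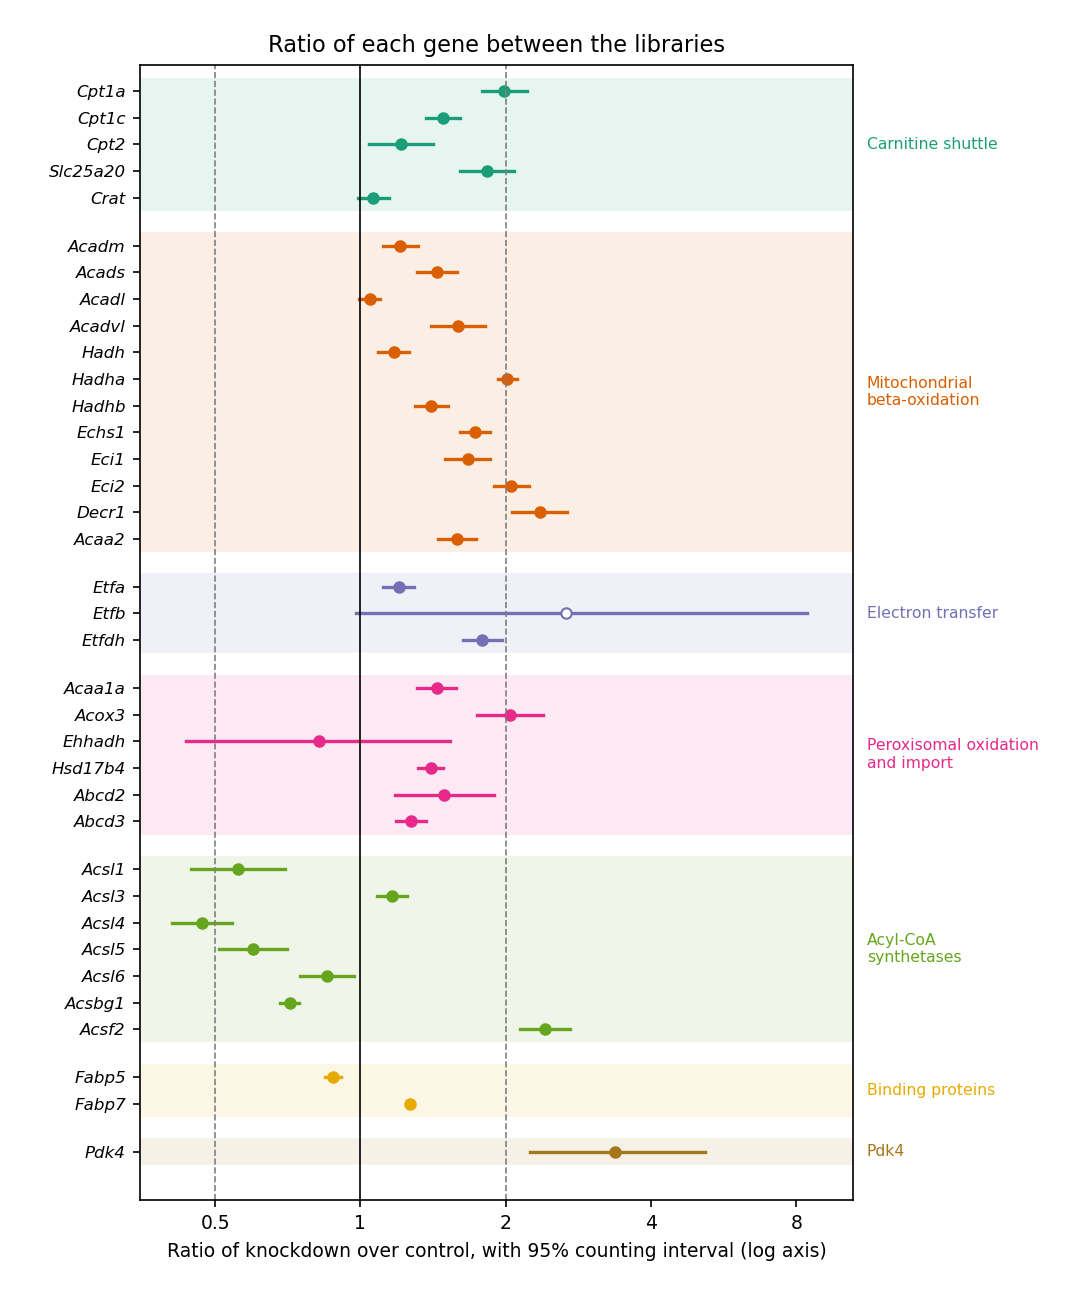
Ratio of knockdown over control for each gene on a log axis, with its 95% counting interval, colours marking functional groups, dashed lines at 2-fold and an open point for Etfb, which lies below the minimum of 1 CPM. Pdk4 (3.37), Acsf2 (2.41) and Decr1 (2.35) have the highest ratios among genes past the minimum, and Acsl4 (0.470) the lowest.

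Electron transfer from the dehydrogenases runs through the flavoprotein subunits Etfa and Etfb to the ubiquinone oxidoreductase Etfdh. Etfdh stood at 43.7 CPM in control RNA and 78.1 CPM after knockdown (ratio 1.79, interval 1.63 to 1.96). Etfa stood at 82.1 and 98.5 CPM (ratio 1.2, interval 1.12 to 1.29). The oxidoreductase was thus further from its control level than the flavoprotein subunit. Etfb had only 6 and 15 counts (0.356 and 0.951 CPM), below the minimum, although its product pairs with that of Etfa. It shares 617 exonic bases, 53.0% of its exons, with another gene on the same strand (Gm45233), and how the counting treated reads in shared exons is not given in the sources used here. No statement on Etfb is drawn from these counts. The median log2 fold of 0.55 for electron transfer rests on 2 genes, and without Etfdh, which shares exonic bases with another gene, it was 0.26.

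Peroxisomal genes lay above their control level with the exception of Ehhadh, and their median log2 fold was 0.50. Acox3 (ENSMUSG00000029098, chromosome 5, 35583040 to 35615352, plus strand), an oxidase of branched chains, stood at 14.6 CPM in control RNA and 29.7 CPM after knockdown (ratio 2.04, interval 1.74 to 2.39). Hsd17b4, the D-specific bifunctional enzyme, was the most abundant of the 6 per kilobase and took 54.9% of their summed level in control RNA and 55.3% after knockdown. It stood at 110 and 154 CPM (ratio 1.40, interval 1.32 to 1.49). Acaa1a, the peroxisomal thiolase, had 48.6 and 69.9 CPM (ratio 1.44, interval 1.31 to 1.58). The L-specific bifunctional enzyme Ehhadh was scarce, with 26 and 20 counts, and its ratio of 0.822 (0.435 to 1.53) could not be told from 1 at this depth. Of the importers of fatty acyl-CoA, Abcd3 stood at 82.8 and 106 CPM (ratio 1.28, interval 1.19 to 1.37), and the scarcer Abcd2 at 7.36 and 11 CPM (ratio 1.49, interval 1.18 to 1.89).

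The 7 acyl-CoA synthetases diverged, with 5 intervals below a ratio of 1 (33.6% of all genes) and 2 above it. Acsl4 (ENSMUSG00000031278, chromosome X, 142317993 to 142390535, minus strand), which prefers arachidonic acid, stood at 38.3 CPM in control RNA and 18 CPM after knockdown (ratio 0.470, interval 0.407 to 0.541), and 6.88% of all genes had a lower fold. Acsl1 stood at 14.2 and 7.93 CPM (ratio 0.559, interval 0.446 to 0.697), and Acsl5, known from mitochondria and the endoplasmic reticulum, at 24.7 and 14.8 CPM (ratio 0.60, interval 0.509 to 0.705). Those 3 were at least 1.5-fold lower (background 15.7%). Acsbg1, a synthetase of the bubblegum family for very long chains, was lower by less, with 261 and 186 CPM and a ratio of 0.713 (0.681 to 0.748). Acsl6, the isoform enriched in brain, had 32.6 and 27.8 CPM (ratio 0.853, interval 0.750 to 0.968). The opposite direction was taken by Acsl3, which serves lipid droplets, at 87.0 and 101 CPM and a ratio of 1.16 (1.08 to 1.25). Acsf2 (ENSMUSG00000076435, chromosome 11, 94557102 to 94601871, minus strand), a mitochondrial synthetase for medium chains, stood furthest above, at 23.4 and 56.4 CPM and a ratio of 2.41 (2.14 to 2.72).

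The make-up of the synthetase family differed accordingly. Per kilobase of exon, Acsbg1 took 62.5% of the 7 genes' summed level in control RNA and 51.0% after knockdown, and remained the most abundant. Acsf2 took 5.87% and 16.2%, and Acsl3 17.2% and 22.9%. Acsl4 took 6.11% and 3.29%, so Acsl3 was 2.82 times as abundant as Acsl4 in the control and 6.98 times in the knockdown library. Merged exon lengths overstate the length of genes with many isoforms, so levels compared between genes are approximate.

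**Figure D3:**
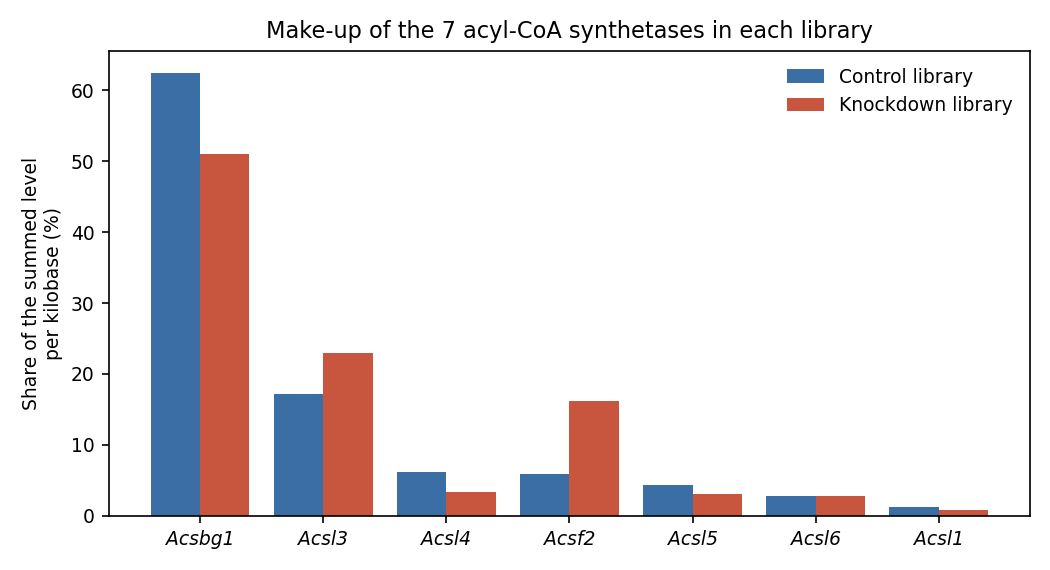
Share of each acyl-CoA synthetase in the summed level per kilobase of the 7 genes (vertical axis, percent), in the control (blue) and the knockdown library (red), ordered by the control. Acsbg1 has the tallest bars (62.5% and 51.0%), and Acsf2 differs most by ratio (5.87% and 16.2%).

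The 2 binding proteins that carry fatty acids in the cytosol were abundant. Fabp7, the brain-type protein and a marker of radial glia, was first of the 36 genes per kilobase in both libraries. It stood at 2146 CPM in control RNA and 2714 CPM after knockdown (ratio 1.26, interval 1.25 to 1.28). Fabp5, the epidermal-type protein, stood at 359 and 315 CPM (ratio 0.879, interval 0.846 to 0.912). These 2 paralogs lay on opposite sides of their control levels, both within 1.5-fold. Per kilobase, Fabp7 was 17.1 times as abundant as Fabp5 in the control and 24.6 times in the knockdown library.

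Pdk4 had the highest ratio of the members past the minimum. This kinase (ENSMUSG00000019577, chromosome 6, 5483351 to 5496309, minus strand) inactivates pyruvate dehydrogenase and so spares glucose when fatty acids are burned. Its 32 control and 101 knockdown counts stand for 1.90 and 6.40 CPM (ratio 3.37, interval 2.25 to 5.19), and 2.75% of all genes had a higher fold. Per kilobase it stayed among the scarcest members, at rank 34 of 36 in control RNA and rank 33 after knockdown. A separate list of 11 genes of pyruvate dehydrogenase and its regulators held Pdk2, a sister kinase, at 24.3 and 113 CPM (ratio 4.66, interval 4.19 to 5.21). Pdp2, a phosphatase of the opposite action, stood at 19.0 and 9.32 CPM (ratio 0.489, interval 0.400 to 0.597). The remaining 9, among them the subunits of the complex, lay within 2-fold, and the list's median log2 fold was -0.11. With 1 of 11 genes past 2-fold in each direction, the list was near the shares over all genes (7.64% higher, 7.76% lower).

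Genes of the wider pathway that are not members were read from lists by function, beside the 7.64% of all genes that were at least 2-fold higher and the 7.76% at least 2-fold lower. Of 20 further genes of mitochondrial acyl-CoA oxidation past the minimum, among them enzymes of branched-chain amino acid breakdown, 5 passed 2-fold upwards and 0 downwards (median log2 fold 0.69). The acyl-CoA dehydrogenases Acad10 and Acad12, neighbours on chromosome 5, had ratios of 4.30 (3.0 to 6.31) and 4.27 (2.59 to 7.37), Hsdl2 had 3.35 (2.98 to 3.76), and Ivd, of leucine breakdown, 2.38 (2.2 to 2.57). Acad11, the remaining one, was named after its values were seen and had a log2 fold of 1.02. Of 15 further genes listed as peroxisomal, 2 passed 2-fold upwards and 0 downwards (median log2 fold 0.46). They were Phyh, which starts the alpha-oxidation of phytanic acid, with a ratio of 3.62 (2.95 to 4.46), and Acsf3 with 2.61 (2.21 to 3.09). Acsf3 is known as a mitochondrial malonyl-CoA synthetase, so Phyh alone of these is a peroxisomal enzyme past 2-fold. The 16 peroxins, which build the organelle, had a median log2 fold of 0.31, with 1 at least 2-fold higher, near the share over all genes. This was Pex11g, with 13 and 49 counts, 41.1% of whose exonic bases lie in an antisense gene. The 16 genes of the tricarboxylic acid cycle, which takes up the acetyl-CoA made, all lay within 2-fold (median -0.052).

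Uptake, storage and synthesis genes were mixed. Beside the same 7.64% higher and 7.76% lower of all genes, the thioesterase, synthesis and lipolysis lists below hold no more than 2 genes past 2-fold in a direction, which is near those shares. Of 13 genes of uptake and activation, 4 passed 2-fold upwards and 2 downwards (median log2 fold 0.33). The mitochondrial acetyl-CoA synthetase Acss1 stood at 50.9 and 175 CPM (ratio 3.44, interval 3.19 to 3.72). The heart-type binding protein Fabp3 stood at 30.3 and 9.19 CPM (ratio 0.303, interval 0.250 to 0.365), and the fatty acid receptor Cd36, which macrophages and endothelial cells also express, had 37 and 3 counts. Slc27a1, a plasma membrane transporter, and the acyl-CoA binding protein Dbi, both named after their values were seen, had ratios of 2.43 (2.34 to 2.53) and 2.03 (1.97 to 2.09). Among 8 acyl-CoA thioesterases 1 was at least 2-fold higher and 1 lower, Acot2 with a ratio of 2.60 (2.08 to 3.28) and Acot7, the abundant brain form, with 0.336 (0.314 to 0.359). Of 22 genes of synthesis, elongation and desaturation 2 passed 2-fold upwards and 0 downwards (median log2 fold -0.14). The higher ones were the desaturase Fads2, at 408 and 846 CPM, and the elongase Elovl7, at 1.25 and 4.76 CPM. More intervals of this list lay below a ratio of 1, 12 of 22 (33.6% of all genes), than above it, 7 of 22 (33.2%). Of 11 lipolysis and lipid droplet genes 1 was at least 2-fold higher, Mgll with a ratio of 2.05 (1.75 to 2.41). Another 1 was at least 2-fold lower, Lpl with 0.395 (0.304 to 0.510). The median log2 fold of these 11 was 0.45, above the upper quartile of all genes (0.36). Of their intervals 7 lay above a ratio of 1 (33.2% of all genes) and 2 below it (33.6%).

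The receptors and coactivators that drive oxidation genes in other tissues were mostly within 2-fold of control, as were most genes past the minimum. Of 13 genes of the peroxisome proliferator-activated receptors, their partners and coactivators, 12 lay within 2-fold and 1 was at least 2-fold higher. That is near the 7.64% of all genes, and the median log2 fold was 0.33. The intervals of 7 lay above a ratio of 1 (33.2% of all genes) and those of 2 below it (33.6%). These 2 were Ppargc1a, a coactivator, with a ratio of 0.687 (0.561 to 0.839), and Nrip1, with 0.742 (0.629 to 0.874). Both were named after their values were seen. Ppard, also named after its values were seen, was the only peroxisome proliferator-activated receptor past the minimum, with a ratio of 1.59 (1.48 to 1.72). The gene past 2-fold was the coactivator Ppargc1b, whose 38 and 86 counts gave a ratio of 2.42 (1.63 to 3.64). Among other genes known as their targets, Angptl4, a secreted inhibitor of lipoprotein lipase, had 3 and 61 counts (ratio 21.7, interval 7.09 to 108), and Acot2 is given above. Bdh2, a dehydrogenase named for ketone body metabolism, had 13 and 46 counts (ratio 3.78, interval 2.01 to 7.63).

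**Figure D4:**
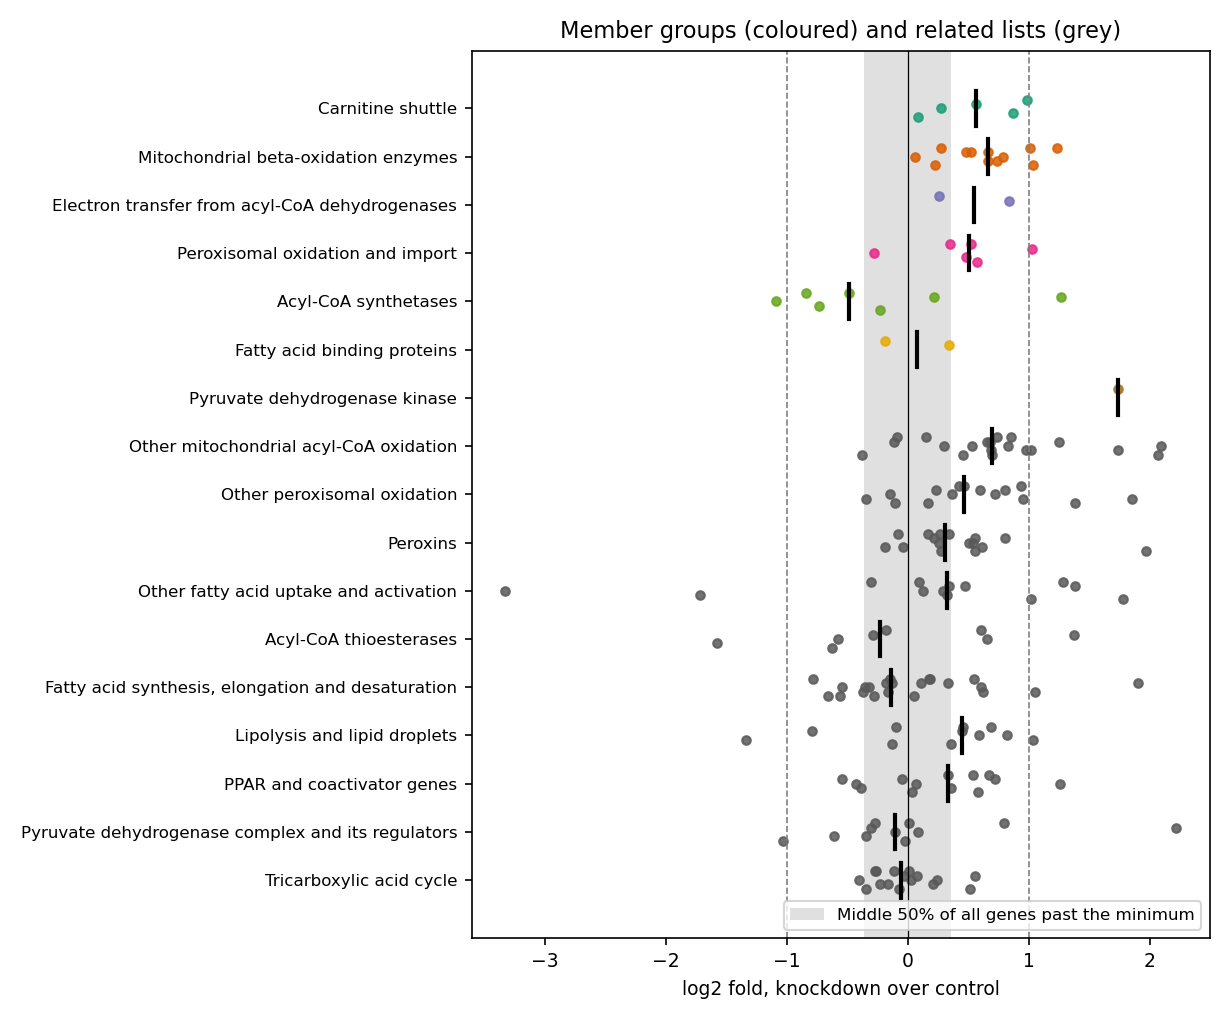
log2 fold of each gene past the minimum (points) by functional list, the vertical bar marking the list's median, the grey band the middle 50% of all genes and the dashed lines 2-fold. The shuttle, beta-oxidation, electron transfer and peroxisomal groups have medians to the right of the band (0.57, 0.67, 0.55 and 0.50, the electron transfer value resting on 2 genes and lying inside the band, at 0.26, without Etfdh), the synthetases one to its left (-0.49), and the tricarboxylic acid cycle one inside it (-0.052).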

How the data were processed

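RNA was sequenced from 1 control and 1 knockdown sample, grouped by their titles. Named in the submitters' processing notes, without order or settings, are TopHat2 2.0.12, Bowtie2 2.2.3, HTSeq 0.6.0 and the build mm9. Gene positions in the table match GRCm38: 18241 of 19595 gene IDs have the same start and end in GENCODE M21. The authors deposited raw counts per gene and library, CPM made from them, a fold ratio, its log2 and p-values, per the file headers, which name no test. These p-values were not used.

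All values were computed from the deposited counts, scaled with edgeR 4.0.16 TMM factors, which were 1.018 (control) and 0.982 (knockdown). The log2 fold adds 0.5 to each count, and ratios add nothing. With 1 library per group there was no test, and genes were counted by a fixed fold of 2 among those with a mean of at least 1 CPM. Intervals are exact conditional binomial 95% intervals. PCR copies of 1 molecule are counted again, so intervals and floors cover counting error only. Levels per kilobase use merged exons of GENCODE M21. The calculation was tested on simulated data.

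The members and lists were chosen with earlier results of these data known. Named genes are all members and, of the other lists, up to 4 per list that passed 2-fold, by absolute log2 fold. Acad11, Slc27a1, Dbi, Ppard, Ppargc1a, Nrip1, the marker Apoe and the genes below the minimum in the closing section were named outside this rule, after their values were seen. Acot2 and Acsf3 each stand in 2 lists. Counts over the lists of ketone body genes and of other receptor targets are not reported here. Alternatives were DESeq2 1.42.0 size factors, total-count and upper-quartile scaling, the authors' CPM, a threshold of 1.5-fold, prior count 5, and no minimum or one of 10 CPM.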

Additional observations from a re-analysis of the deposited data

How the results depend on the processing

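The directions of all group medians held under every alternative run, and no single member's fold reversed beyond its counting interval. Of 315 alternative values, 298 stayed near the reported ones. For a gene's fold, the limit was the mean reach of its counting interval to either side on the log2 scale. For group medians it was the median of that reach over the group's genes, and for counts of genes a factor of 1.5. The 315 values are not separate checks. Each other scaling shifts all log2 folds by the same amount, and the authors' CPM nearly repeat total-count scaling. The limit is also wide for genes with few counts. The number of members at least 2-fold higher was 6, and 3 with total counts, 3 with the authors' deposited CPM and 3 without genes that share exonic bases with another gene (14 members do). A threshold of 1.5-fold gave 13 higher and 3 lower. Removing the trend of the log2 fold with exon length and GC content left 0 members at least 2-fold lower, Acsl4 then standing at -0.99. Without genes that share exonic bases, the median log2 fold was 0.87 for the carnitine shuttle, 0.51 for the beta-oxidation enzymes, 0.26 for electron transfer and 0.51 for mitochondrial oxidation as a whole. Without a minimum, electron transfer, which then includes Etfb, stood at 0.84. The binding proteins' median, 0.076 as reported, was 0.024 with total counts and 0.024 with the authors' CPM. The 2 alternatives on shared exons and on length and GC content were chosen after the data were seen. No paired analysis was possible because there is 1 library per group, and leaving out a replicate was not possible for the same reason. Depth limits Ehhadh, Etfb and Pdk4, which rest on 6 to 101 counts a library.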

Other observations

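Some genes of the related lists lay below the minimum of 1 CPM and enter no count, and those given here were chosen after their values were seen. Cpt1b, the muscle form of the entry transferase, had 4 control and 8 knockdown counts, and Ppara, the receptor best known for driving oxidation genes in liver, had 5 and 10. Slc27a2, a synthetase of very long chains, had 10 and 0 counts, Plin5, a droplet protein of oxidising tissues, 9 and 1, and Acss3 2 and 10.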
